A study of Mus musculus with 9 samples.

Results

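Gene expression was compared between diabetic and non-diabetic ulcers of rats, both treated with saline. The members were all 15600 genes, of 28370 in the table after features of the same gene name were summed, that reached 0.5 FPKM (a fragment count scaled by transcript length and by library size) in at least 3 of the 9 libraries of the series. The comparison used 6 of those libraries, 3 from each group, and 3 libraries of a PRP group (diabetic ulcers given platelet-rich plasma) entered only the estimate of spread. Each library was RNA of ulcer skin taken on day 21, and each was labelled a biological replicate. Ulcers of both groups had been injected with 0.5 ml of saline on day 1 and again on days 7, 14 and 21. In the design text the non-diabetic ulcers are called sham and the saline-treated diabetic ulcers control, and all wounds were dressed with Vaseline gauze. How diabetes was induced, and the strain, age and sex of the animals, do not appear in the labels or the design text. The labels give mouse as the organism, while the design text speaks of rats and all 30560 identifiers in the table are rat Ensembl identifiers. Because nothing says whether each library came from its own animal, the p-values measure the spread between these libraries, which may in part be technical.

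A skin wound is first filled by a provisional matrix and by neutrophils and monocytes. Monocytes mature into macrophages, fibroblasts and new vessels build granulation tissue, keratinocytes close the surface, and the matrix is then remodelled over weeks. Diabetes is known for delaying this sequence, and lasting inflammation, poor vessel growth and altered matrix have been described in diabetic wounds. The panniculus carnosus, a thin sheet of striated muscle under the skin of rodents, can be included in a skin sample together with hair follicles and fat.

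The libraries held these tissues in unequal amounts. Total FPKM ran from 564078 to 676150 per library, and the sequencing depth of the libraries is unknown. Markers of skin were found in all 6 libraries, among them the basal keratin gene Krt5 at 507, 1181 and 40.8 FPKM in non-diabetic replicates 1 to 3 and 1132, 1407 and 1439 FPKM in diabetic replicates 1 to 3, and the collagen gene Col1a1 at 3000.4, 2647 and 2317 against 1199, 587 and 3435 FPKM. In what follows, 3 values in a row are always replicates 1 to 3 of a group, and where 2 such groups are set against each other the non-diabetic one comes first. The fast muscle gene Mylpf was at 69, 1293 and 800.5 FPKM in non-diabetic and 5230.1, 2125 and 1733 FPKM in diabetic ulcers. The mean log2(FPKM + 1) of 28 hair follicle and hair shaft genes was 2.79, 6.18 and 0.65 in the non-diabetic and 4.05, 7.72 and 7.2 in the diabetic libraries. The lowest hair signal was thus in non-diabetic replicates 1 and 3, the lowest muscle signal in non-diabetic replicate 1, and non-diabetic replicate 2 lay nearer to the diabetic libraries for both. Since this was bulk tissue, fewer cells of a type and less RNA per cell cannot be told apart for any result below. The Y-linked genes Eif2s3y and Kdm5d were at 35.6 to 57.7 and 8.25 to 10.3 FPKM in the 6 libraries, whereas Ddx3y, also Y-linked, was at 0 to 0.0887 FPKM.

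Fibroblast, matrix, macrophage and antigen-presentation genes were lower in diabetic ulcers, and genes of pigment cells, striated muscle and mitochondrial respiration were higher. In limma on log2(FPKM + 1), with all 9 libraries and a Benjamini-Hochberg adjusted p under 0.05 as the call, 1396 of the 15600 genes were called (8.95%). Of these, 279 (1.79% of all tested) were higher and 1117 (7.16%) lower in diabetic ulcers. The median log2 change was 1.04 over the genes called higher, -1.23 over those called lower and 0.04 over all genes tested. A change of at least 4-fold was seen in 34 of the genes called higher and 153 of those called lower. In all 1396 called genes the levels of the groups did not overlap. Over all genes tested they did not overlap in 34.1%, 14.4% with the diabetic group higher and 19.6% with it lower.

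These calls lay close to the threshold, since the smallest adjusted p was 0.0308, and they depended on which libraries were used. No gene was called on the 6 saline libraries alone (smallest adjusted p = 0.0886), although 4463 had an unadjusted p under 0.05 there in limma. Leaving out non-diabetic replicate 1 or 3 gave no call in limma, with 3496 and 3491 genes at an unadjusted p under 0.05, and neither did leaving out diabetic replicate 3 (4519 genes) or PRP replicate 2 (4850 genes). Only 2 were called without diabetic replicate 2 or PRP replicate 1, and 374 without PRP replicate 3. More were called without diabetic replicate 1 (2609) or non-diabetic replicate 2 (3501). All 1396 genes kept their direction and an unadjusted p under 0.05 when any single library was left out. Because the groups of every called gene did not overlap, leaving out libraries could not change a direction, so the kept direction is no support. Without non-diabetic replicates 1 and 3 together, 0 genes were called, 1004 had an unadjusted p under 0.05, and 775 of the 1396 were among those. Every call named below shares these limits.

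**Figure D1:**
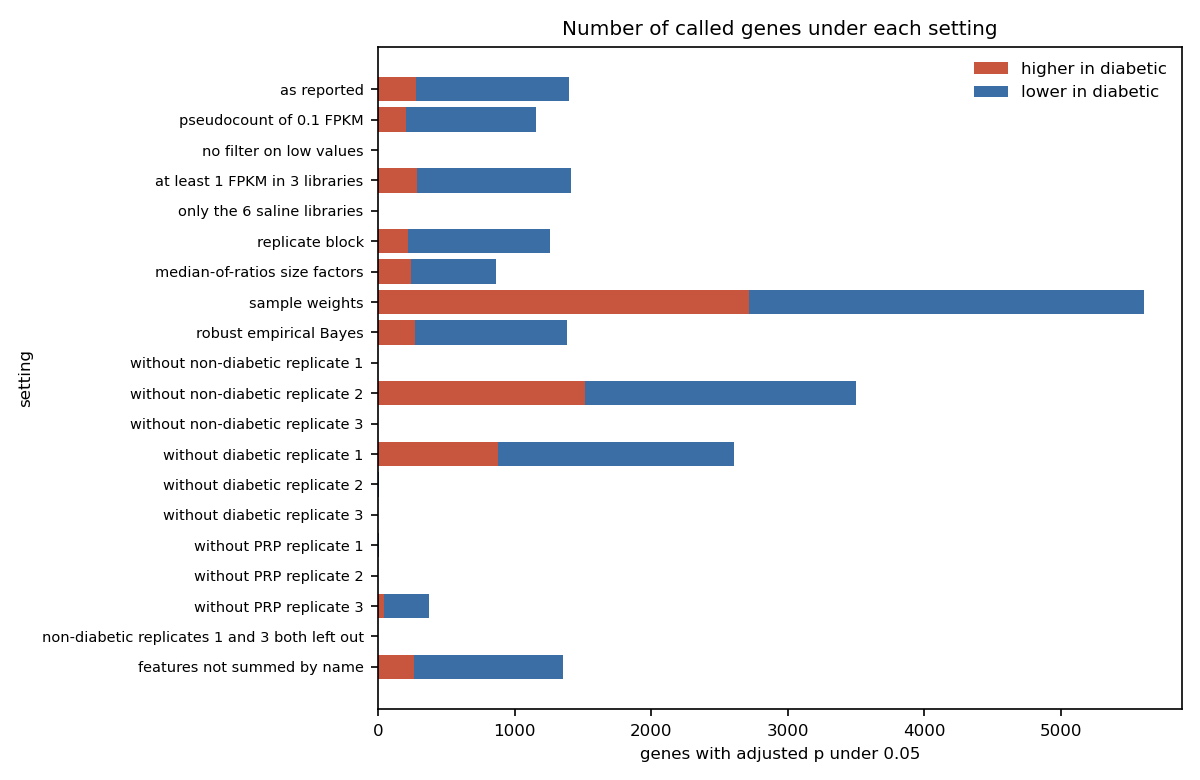
Number of genes with an adjusted p under 0.05 (horizontal axis) under each setting of the analysis (vertical axis), split into genes higher and lower in diabetic ulcers. The count as reported was 1396, it was 0 on the 6 saline libraries alone and 3501 without non-diabetic replicate 2.

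Called genes were ranked by the gap on the log2 scale between the nearest libraries of the 2 groups, so that a gene ranked high only if every diabetic library was far from every non-diabetic one. The widest gap belonged to Fam111a (ENSRNOG00000012067, chromosome 1, 209640953 to 209656547), the gene of a protease known for restricting viruses. Its levels were 74.5, 64.4 and 133 FPKM in non-diabetic and 1.35, 3.17 and 3.91 FPKM in diabetic ulcers, so that log2(FPKM + 1) fell by 4.58 (SE 1.02, adjusted p = 0.0384). The lowest non-diabetic library was thus far above the highest diabetic one. Sfrp2 (ENSRNOG00000009465, chromosome 2, 169089517 to 169097063), a secreted modulator of Wnt signalling made by fibroblasts, fell from 93.9, 52.2 and 91.1 FPKM to 7.8, 3.02 and 3.95 FPKM (log2 change -3.79, SE 0.58). The receptor gene Ccr2 (ENSRNOG00000063127, chromosome 8, 123734430 to 123742100), through which monocytes follow chemokine signals out of the blood, was at 29.8, 22.7 and 26.8 FPKM in non-diabetic and 4.36, 1.41 and 3.23 FPKM in diabetic ulcers. Its log2 change was -2.84 with a standard error of only 0.28, and the non-diabetic replicates lay close together.

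The other large falls by this rule were spread over matrix, mesothelial, antibody and chemokine genes. Msln (ENSRNOG00000019445, chromosome 10, 14771961 to 14777643), which encodes the surface protein mesothelin, fell from 5.76, 8.99 and 11.9 to 0.494, 0.605 and 0.595 FPKM (log2 change -2.61). The immunoglobulin heavy chain gene Ighm fell from 99.6, 32.7 and 84.8 to 7.66, 2.15 and 7.38 FPKM (log2 change -3.44). Adamts15 (ENSRNOG00000009892, chromosome 8, 29307865 to 29331249), a metalloproteinase that cleaves proteoglycans such as versican, fell from 60.4, 49.7 and 72.5 to 11.8, 4.17 and 12.1 FPKM (log2 change -2.68). In each of these the diabetic libraries were all low, and diabetic replicate 2 was the lowest for Ighm and Adamts15. Col5a3 (ENSRNOG00000020525, chromosome 8, 19304571 to 19349853), a minor fibrillar collagen chain, fell from 143, 75.3 and 226 to 14.4, 7.17 and 19.2 FPKM (log2 change -3.31). The neutrophil chemokine gene Cxcl1 fell from 36.2, 10.2 and 72.1 to 2.18, 1.89 and 1.3 FPKM (log2 change -3.5), and its non-diabetic levels were far apart. Lrrc17 (ENSRNOG00000012817, chromosome 4, 13501436 to 13531845), a secreted leucine-rich repeat protein, was steady in the non-diabetic libraries and fell from 32.9, 30.5 and 35.3 to 7.99, 0.931 and 6.08 FPKM (log2 change -2.77). Fibrillin-1 (Fbn1, ENSRNOG00000007302, chromosome 3, 112554925 to 112750889), the main protein of elastic microfibrils, fell from 331, 327 and 276 to 80.4, 23.7 and 65.1 FPKM (log2 change -2.61).

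The widest gaps among genes that rose belonged to striated muscle, pigment cells and the upper epidermis. Csrp3 (ENSRNOG00000014327, chromosome 1, 98528068 to 98546653), the muscle LIM protein, rose from 6.79, 29 and 35.1 to 264, 434 and 221 FPKM (log2 change 3.85, SE 0.70, adjusted p = 0.0308). The perinatal myosin heavy chain gene Myh8 (ENSRNOG00000068010, chromosome 10, 51963510 to 51993232), expressed in young and regenerating fibres, rose from 3.08, 4.11 and 3.57 to 33.4, 42 and 12.9 FPKM (log2 change 2.58). The Z-disc protein gene Myoz2 rose from 0.511, 3.18 and 5.2 to 35.2, 36.6 and 13.1 FPKM (log2 change 2.98). Non-diabetic replicate 1 was the lowest library for all 3 of these genes, whereas Myh8 was nearly level across the non-diabetic libraries. The melanin synthesis genes Tyr (ENSRNOG00000016421, chromosome 1, 141115036 to 141210207), Tyrp1 and Dct rose by log2 changes of 2.72, 3.22 and 3.27. Tyr was at 0.463, 0.698 and 0.00786 FPKM in non-diabetic and 4.81, 16 and 6.24 FPKM in diabetic ulcers. Diabetic replicate 2 was the highest library for each of the 3 pigment genes and non-diabetic replicate 3 the lowest.

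Of the epidermal genes, Serpina12 (ENSRNOG00000042634, chromosome 6, 122952552 to 122967271), a serine protease inhibitor also known as vaspin, rose from 3.12, 2.13 and 0.526 to 9.97, 31.6 and 51.2 FPKM (log2 change 3.3, SE 0.58). Serpinb7 (ENSRNOG00000002555, chromosome 13, 23395671 to 23442205), a protease inhibitor of the outer epidermis, rose from 1.92, 1.66 and 0.0246 to 5.99, 9.37 and 24.8 FPKM (log2 change 2.63). Both were lowest in non-diabetic replicate 3 and highest in diabetic replicate 3. The amino acid oxidase gene Lao1 was at 0.0462, 8.25 and 0.0252 FPKM in non-diabetic and 27.9, 42.9 and 53.1 FPKM in diabetic ulcers (log2 change 4.25). The late cornified envelope gene Lce1m was at 1.48, 32.1 and 0 against 116, 76.2 and 70.2 FPKM (log2 change 4.31). For Lao1 and Lce1m, non-diabetic replicate 2 stood well above the other non-diabetic libraries and below every diabetic one.

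**Figure D2:**
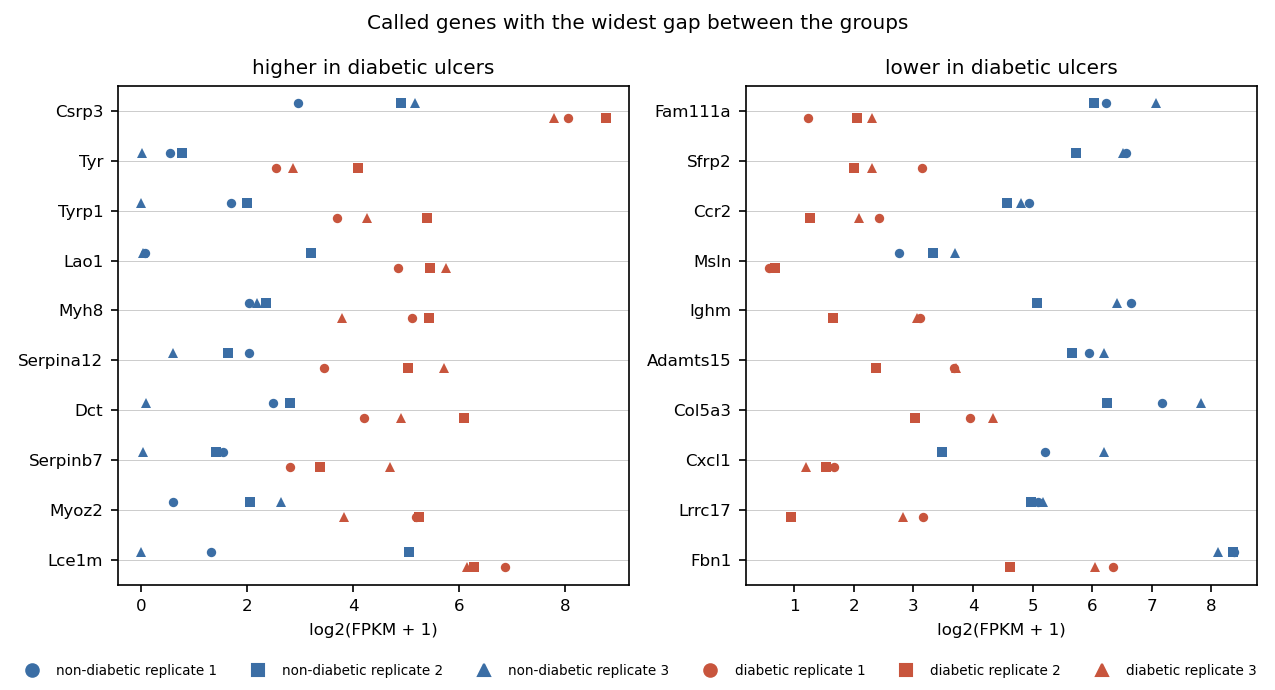
Level of the 10 called genes with the widest gap in each direction (vertical axis) as log2(FPKM + 1) (horizontal axis), 1 point per library, blue for non-diabetic and red for diabetic ulcers, with the marker giving the replicate. Groups are apart for all 20 genes, widest for Fam111a, which was at 64.4 FPKM or more in non-diabetic and 3.91 FPKM or less in diabetic ulcers.

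Ranked instead by the difference of mean FPKM, abundant genes came forward. Lysozyme (Lyz2), an antibacterial enzyme of macrophages and neutrophils, fell from 1452, 810.0 and 1295 to 479, 90.7 and 225 FPKM. Serpinh1, the collagen chaperone, fell from 858, 671 and 1094 to 204, 82.1 and 375 FPKM, and fibronectin (Fn1), a main protein of provisional matrix, from 572, 399 and 598 to 109, 44.6 and 123 FPKM. Cytoplasmic actin (Actb) fell from 933, 726 and 979 to 409, 521 and 477 FPKM (log2 change -0.9). The genes with the largest such rises after Csrp3 included 2 of respiration, described further on, as well as Ccng1 and Ppp1cb. Ccng1, a cyclin gene induced by p53, rose from 48.8, 86.3 and 86.2 to 241, 179.5 and 130.0 FPKM (log2 change 1.31). Ppp1cb (ENSRNOG00000004612, chromosome 6, 23960998 to 23992824), a catalytic subunit of protein phosphatase 1, rose from 66.6, 96 and 72.4 to 158, 159.8 and 161 FPKM (log2 change 1.04, SE 0.20) and was almost the same in the 3 diabetic libraries.

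Genes were next grouped in 52 lists by role. Each count of calls below can be read against the shares of all tested genes, 7.16% called lower and 1.79% called higher. Counts at an unadjusted p under 0.05 in limma can be read against 5414 of all 15600 genes, both directions together. Such a count is therefore no sign of a change by itself. Among matrix genes, 12 of 23 enzymes and helpers of collagen assembly were called and 1 of 15 collagen chains. With median-of-ratios size factors these counts were 2 of 23 and 1 of 15. With the replicate number as a block they were 15 of 23 and 4 of 15. The median log2 change of the first list was -1.19 as reported and in both alternatives. Its number of calls thus depended on the setting, and why was not tested. All 15 fibrillar and associated collagens were lower in diabetic ulcers (median log2 change -1.52), but the only one called was Col5a3. Col3a1 was at 10976, 8975 and 7565 FPKM in non-diabetic and 3889.9, 1172 and 6907 FPKM in diabetic ulcers, so its groups did not overlap (adjusted p = 0.145). Col1a1 and Col1a2 did overlap, because diabetic replicate 3 was above every non-diabetic library for each. Col1a2 was at 3095, 2683 and 2323 against 1204, 586 and 3428 FPKM (log2 change -1.0, adjusted p = 0.284).

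Of 23 genes for collagen modification and cross-linking, all lower (median -1.19), 12 fell and 18 had groups that did not overlap. Beside Serpinh1 these included P4hb, the shared subunit of prolyl hydroxylase and a disulfide isomerase, which went from 419, 356 and 489 to 193, 153 and 275 FPKM (log2 change -1.05). Ppib, a prolyl isomerase of the collagen folding complex, went from 103, 111 and 99.4 to 59.4, 46.1 and 60.2 FPKM (log2 change -0.92). Fkbp10, a further collagen prolyl isomerase, went from 116, 88.6 and 138 to 25.9, 12.8 and 56.5 FPKM (log2 change -2.03). Diabetic replicate 2 was lowest for all 4 genes. General folding helpers of the endoplasmic reticulum were nearer to no change. Of 20 tested chaperone and stress genes, 0 were called in limma, 1 had an unadjusted p under 0.05, and the median was -0.16. Calreticulin (Calr) was at 296, 285 and 302 against 141, 222 and 185 FPKM (log2 change -0.71, adjusted p = 0.0551), and the chaperone Hspa5 at 156, 142 and 194 against 106, 175 and 166 FPKM (log2 change -0.15). No test compared the 2 lists.

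Genes of transport out of the endoplasmic reticulum were mostly lower by small amounts. Of 30 genes listed under secretory transport (COPII and COPI vesicles, cargo receptors), 28 were lower and 2 higher (median -0.46). The groups did not overlap in 17 with the diabetic group lower and in 1 with it higher. As 3 fell, 1 with median-of-ratios size factors, the calls were near the share over all genes (7.16%). The 3 were the retrieval receptor Kdelr1, from 68.6, 53 and 72 to 29.1, 21.1 and 33.7 FPKM (log2 change -1.19), the COPII coat gene Sec24d (log2 change -1.28) and Creb3l2 (log2 change -1.01), a transcription factor that raises secretory genes. Tmed2, a cargo receptor subunit, was at 174, 157 and 198 against 140.1, 116 and 165 FPKM (log2 change -0.33, adjusted p = 0.201).

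Microfibril and provisional matrix genes were lower as well. Of 16 elastic fibre genes 5 fell (median -1.13), among them Mfap5, from 250.5, 187 and 301 to 83.1, 33.9 and 61 FPKM, Fbln2 (log2 change -1.17) and Efemp2, a fibulin that elastin assembly needs (log2 change -1.82). The remaining 2 were Fbn1 and Emilin1 (log2 change -1.98), the latter named after its values were seen. Of 22 provisional and matricellular matrix genes, all lower (median -1.55), 7 fell. Fn1 led with a log2 change of -2.6, followed in level by the proteoglycans Bgn (log2 change -1.2) and Vcan, which went from 110.0, 66.7 and 176 to 29.3, 27.9 and 51.2 FPKM. Tnfaip6, which couples hyaluronan to other matrix proteins, fell from 34, 23.9 and 74.6 to 12.2, 2.11 and 5.28 FPKM (log2 change -2.67). With non-diabetic replicates 1 and 3 left out the median of the provisional matrix list was -0.96.

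Genes of matrix breakdown were lower too. Of 21 metalloproteinases and their inhibitors 8 fell (median -1.46). The membrane protease gene Mmp14 fell from 554, 433 and 512 to 206, 62.4 and 193 FPKM (log2 change -1.87), and Mmp19 from 39.1, 27.4 and 46.1 to 13.1, 3.9 and 6.87 FPKM (log2 change -2.21). The inhibitor gene Timp1 fell from 231, 114 and 539 to 39.1, 24.5 and 36.3 FPKM (log2 change -2.85), with a wide spread among the non-diabetic libraries. Adamts1, which cleaves versican, fell from 36.1, 23.3 and 54.4 to 15.7, 13.1 and 12.4 FPKM (log2 change -1.33). The list's median was -0.73 with non-diabetic replicates 1 and 3 left out.

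The fibroblast list was lower, with 5 of 19 genes called and 13 with groups that did not overlap (median -1.36). Fstl1, a secreted glycoprotein of stromal cells, went from 344, 342 and 396 to 120.4, 64.1 and 188 FPKM (log2 change -1.66). The receptor gene Pdgfra, through which platelet-derived growth factor acts on fibroblasts, went from 152, 90.3 and 159 to 50.3, 22.7 and 28 FPKM (log2 change -2.0). Prrx1, a transcription factor of wound fibroblasts, went from 111, 84.7 and 122 to 55, 21.3 and 25.3 FPKM (log2 change -1.73) and the surface marker Thy1 from 62.6, 44.6 and 73.2 to 12.6, 6.29 and 18.4 FPKM (log2 change -2.27). The fifth was Prrx2 (log2 change -2.13, named after its values were seen). The list's mean log2 level was 6.68, 6.57 and 6.54 in non-diabetic and 5.97, 4.77 and 5.4 in diabetic libraries, so that diabetic replicate 1 was nearest to the non-diabetic range.

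Contractile and vascular genes were mostly lower, and some of them were called. Of 18 myofibroblast, smooth muscle and pericyte genes, 14 were lower and 4 higher, and 3 fell. These 3 were the calponin gene Cnn2 (log2 change -1.55), the myosin light chain gene Myl9 (log2 change -0.94) and the pericyte and endothelial adhesion gene Mcam. Mcam went from 40.2, 25.1 and 73.6 to 15.7, 10.4 and 9.79 FPKM (log2 change -1.76). Among the higher members, the tropomyosin gene Tpm2 was at 104, 309 and 261 against 754, 308 and 310 FPKM (log2 change 1.03, adjusted p = 0.152 in limma). The median of this list was -0.57, and it was -0.89 without diabetic replicate 1 and -0.30 without diabetic replicate 3. All 22 endothelial genes were lower (median -1.1, and -0.72 without non-diabetic replicates 1 and 3), and 4 fell. Vcam1, the adhesion molecule that binds monocytes and lymphocytes, went from 25.5, 20.1 and 36.7 to 6.27, 2.74 and 3.31 FPKM (log2 change -2.5). Tie1 (log2 change -1.4), the co-receptor Eng (log2 change -1.36) and the transcription factor Sox18 (log2 change -1.35) were the other 3. Of growth factors of repair, 2 of 24 were called (median -0.42, and -0.25 without non-diabetic replicates 1 and 3). Hgf, a factor from stromal cells that acts on epithelium, fell from 5.32, 4.52 and 7.05 to 2.44, 2 and 1.96 FPKM (log2 change -1.07). Btc, a ligand of the epidermal growth factor receptor, rose from 0.796, 0.719 and 0.543 to 2.52, 2.96 and 3.08 FPKM (log2 change 1.19). Vegfa was at 22.2, 15.9 and 28 against 16, 14.2 and 11 FPKM (log2 change -0.62, adjusted p = 0.104).

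Signalling lists held changes in both directions. Of 26 Wnt ligands, inhibitors and targets, 3 fell, all of them secreted inhibitors or modulators. Sfrp4 went from 183, 214 and 230.2 to 79.3, 25.1 and 14.6 FPKM (log2 change -2.71) and Dkk3 from 46.4, 40.3 and 42.2 to 23.2, 12.4 and 26.2 FPKM (log2 change -1.09), beside Sfrp2. Rspo3, a secreted enhancer of Wnt signalling, rose from 0.0884, 0.523 and 0 to 1.06, 3.4 and 1.94 FPKM (log2 change 1.34), at a low level. The list's median was 0.61, 0.91 with non-diabetic replicate 2 left out and 0.13 with replicates 1 and 3 left out. Of 26 TGF-beta and activin genes, 4 fell and 2 rose (median -0.35, and -0.06 without non-diabetic replicates 1 and 3). Those that fell were Eng, the receptor Acvrl1 (log2 change -1.26), the BMP target Id3 (log2 change -0.81) and Lrrc32, which holds latent TGF-beta at the cell surface (log2 change -1.71). The activin antagonist Fst rose from 3.06, 3.3 and 2.21 to 7.89, 9.18 and 5.74 FPKM (log2 change 1.15), and the ligand gene Bmp2 from 2.12, 4.04 and 1.85 to 6.02, 9.44 and 6.68 FPKM (log2 change 1.22). Fst and Bmp2 were named after their values were seen.

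The macrophage list held the most calls of any list. Of 27 monocyte and macrophage genes 19 fell, 23 had groups that did not overlap with the diabetic group lower, and the median was -1.79. After Lyz2, those with the highest level were Tyrobp, the signalling adaptor of many myeloid receptors, from 231, 143 and 269 to 97.1, 23.3 and 58.5 FPKM (log2 change -1.99), and Lgmn, a lysosomal protease, from 172, 116 and 172 to 69.9, 25.7 and 37.3 FPKM (log2 change -1.86). The lectin gene Clec10a, found on macrophages and dendritic cells of the dermis, fell from 126, 147 and 116 to 78.4, 22.3 and 30.1 FPKM (log2 change -1.75). Diabetic replicate 1 was the highest and diabetic replicate 2 the lowest of the diabetic libraries for these 3 genes, as it was for the list as a whole. Its mean log2 level was 5.58, 5.04 and 5.62 in non-diabetic and 4.38, 2.99 and 3.61 in diabetic ulcers.

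Lysosome and complement genes, many of which macrophages express strongly, were lower too. Of 24 lysosomal genes 8 fell and 19 had groups that did not overlap with the diabetic group lower (median -0.94, and -0.56 without diabetic replicate 2). Psap, the precursor of sphingolipid activators, went from 555, 474 and 563 to 334, 172 and 238 FPKM (log2 change -1.14). The proteases Ctsb (log2 change -1.13) and Ctsa (log2 change -1.25) and the membrane protein gene Cd63 (log2 change -1.23) fell with it. All 15 complement genes were lower (median -1.36), and 2 fell. C1qa, part of the complex that starts the classical pathway, went from 332, 347 and 289 to 206, 52.7 and 91.5 FPKM (log2 change -1.68). Properdin (Cfp), which stabilises the alternative pathway, went from 36.9, 34.4 and 33.6 to 9.83, 3.9 and 4.12 FPKM (log2 change -2.47), with little spread among the non-diabetic libraries.

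Antigen-presentation genes were lower, with 1 exception. Of 16 genes of antigen presentation and dendritic cells 11 fell (median -1.74, and -1.12 without non-diabetic replicates 1 and 3). The invariant chain gene Cd74, which guides class II molecules to the endosome, fell from 564, 533 and 465 to 179, 53.3 and 161 FPKM (log2 change -2.16). The class II chains RT1-Da, RT1-Db1 and RT1-Ba fell, with log2 changes of -2.31, -1.98 and -2.29. RT1-Da was at 268, 228 and 216 FPKM in non-diabetic and 69, 20.5 and 72 FPKM in diabetic ulcers, and diabetic replicate 2 was again the lowest library. The class II family holds near-identical copies between which reads can be split, so the values of single chains are uncertain. The 1 higher member, Cd207, the langerin gene of Langerhans cells, was at 1.35, 6.98 and 0.372 against 14.7, 6.35 and 11.2 FPKM (log2 change 1.93, adjusted p = 0.0637, named after its values were seen).

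Lymphocyte genes were lower at low levels. All 11 B and plasma cell genes were lower (median -0.83, and -0.52 without non-diabetic replicates 1 and 3), and 5 fell. After Ighm these were the antibody joining chain Jchain, from 71.2, 26.8 and 54 to 6.15, 1.72 and 8.09 FPKM (log2 change -3.1), the B cell inhibitory receptor Cd22, from 4.24, 3.18 and 3.75 to 1.13, 0.392 and 0.522 FPKM (log2 change -1.51), and Fcrla (log2 change -0.83). The fifth, Cd79b (log2 change -0.75), a chain of the B cell receptor, was named after its values were seen. Of 14 T and NK cell genes 2 fell, both coding for the CD8 co-receptor of cytotoxic T cells (median -0.96, and -0.26 without non-diabetic replicates 1 and 3). Cd8a went from 7.87, 3.04 and 11.1 to 1.01, 0.121 and 0.536 FPKM (log2 change -2.32) and Cd8b from 3.19, 1.4 and 4.03 to 0.665, 0.318 and 0.718 FPKM (log2 change -1.25). Of 20 interferon response genes 2 fell, Irf1 (log2 change -1.16) and Stat2 (log2 change -0.53). The median was -0.53, and it was -0.30 without diabetic replicate 2 and -0.84 without diabetic replicate 3.

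Mast cell genes were mostly higher. Of 10 tested, 8 were higher and 1 rose, Fcer1a, a chain of the high-affinity receptor for IgE, from 0.524, 0.581 and 0.632 to 1.87, 1.4 and 1.02 FPKM (log2 change 0.61). The median was 0.54, and 0.30 without diabetic replicate 1. The mast cell protease Cpa3 was at 7, 9.39 and 6.8 against 23.6, 10.3 and 29.7 FPKM (log2 change 1.24, adjusted p = 0.0677). Its diabetic levels were above the non-diabetic ones in every library.

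Globin and platelet genes were lower beside the immune lists. Of 4 erythroid genes 2 fell, the beta globin gene Hbb-b1 from 451, 371 and 567 to 227, 85.7 and 68.5 FPKM (log2 change -2.04) and the alpha globin gene Hba-a2 from 119, 91.1 and 122 to 41.1, 17.3 and 9.89 FPKM (log2 change -2.45). Globin genes have near-identical copies, so the split between them is uncertain. The other erythroid members were at low levels with groups that overlapped. Slc4a1 was higher, at 0.37, 0.59 and 0.136 against 0.163, 0.837 and 1.05 FPKM (log2 change 0.28), and Ahsp had a log2 change of -0.11. The 4 erythroid genes had a mean log2 level of 4.13, 3.94 and 4.26 in non-diabetic and 3.46, 2.9 and 2.75 in diabetic libraries. All 4 platelet genes were lower (median -1.17, and -0.75 without non-diabetic replicates 1 and 3), and 0 were called in limma, with 4 at an unadjusted p under 0.05. The part of blood content in the immune results was not tested.

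Acute inflammatory genes were lower in diabetic ulcers, with wide spread among the non-diabetic libraries. Of 24 cytokine and chemokine genes 5 fell (median -1.81). Cxcl12, a stromal chemokine, went from 232, 226 and 183 to 133, 51.2 and 34.7 FPKM (log2 change -1.76). The monocyte chemokine genes Ccl2 and Ccl7 went from 123, 79.3 and 221 to 39.4, 5.24 and 5.72 FPKM (log2 change -3.45) and from 28.5, 14.3 and 40.4 to 6.56, 0.918 and 0.915 FPKM (log2 change -3.13). Cxcl1 was the fourth, and Ccl12 (log2 change -2.3) was named after its values were seen. Non-diabetic replicate 2 was the lowest and replicate 3 the highest non-diabetic library for Ccl2, Ccl7 and Cxcl1. The list's median moved to -1.13 without non-diabetic replicate 3, and to -0.34 when replicate 1 of that group was left out too.

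Receptors and targets of the interleukin-6 family, whose members signal through gp130 and the factor STAT3, were lower in part. Of 22 genes 8 fell, 3 with median-of-ratios size factors, while 4 were higher and none of those called (median -0.98). They included the kinase Jak1, from 85.9, 66 and 78.1 to 52.2, 32.5 and 30.3 FPKM (log2 change -1.02), and Stat3 itself, from 65.1, 51.6 and 74.8 to 40.05, 38.4 and 34.2 FPKM (log2 change -0.74). Socs3, the feedback inhibitor that STAT3 induces, went from 81, 28.8 and 209.6 to 9.09, 3.18 and 2.78 FPKM (log2 change -3.88). Il4r, the receptor chain through which interleukin-4 and interleukin-13 act, went from 52.7, 25.9 and 100.3 to 13.6, 9.55 and 9.34 FPKM (log2 change -2.18). Of the higher members, the receptor gene Lifr was at 19.5, 28.7 and 17.9 against 34.6, 30.4 and 42.7 FPKM (log2 change 0.7, adjusted p = 0.101) and the cytokine gene Ctf1 at 0.898, 1.52 and 1.16 against 1.79, 1.74 and 1.73 FPKM, both without overlap and both named after their values were seen. The median of the list was -0.36 without non-diabetic replicates 1 and 3.

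Of 28 immediate early and stress-induced transcription factors and regulators, 6 fell (median -0.71, and -0.32 without non-diabetic replicates 1 and 3). The AP-1 subunits Junb and Fos went from 369, 283 and 491 to 176, 141 and 116 FPKM (log2 change -1.38) and from 176, 100.3 and 157 to 48.5, 6.68 and 6.01 FPKM (log2 change -3.35). Fos was higher in diabetic replicate 1 than in the other diabetic libraries. Cebpd, a factor of the acute phase response, fell (log2 change -1.75), and so did Zfp36, which speeds the decay of cytokine mRNA (log2 change -1.73). All 11 neutrophil genes were lower (median -2.24), and 1 fell, the lectin receptor gene Clec4d, from 31.3, 5.93 and 71.2 to 4.11, 0.456 and 1.2 FPKM (log2 change -3.32). The calprotectin gene S100a9 was at 956, 19.4 and 394 against 8.24, 24.1 and 146 FPKM, so that non-diabetic replicate 2 lay among the diabetic libraries (adjusted p = 0.297). The neutrophil median moved to -1.40 without non-diabetic replicate 3, and to -0.33 when replicate 1 of that group was left out too.

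**Figure D3:**
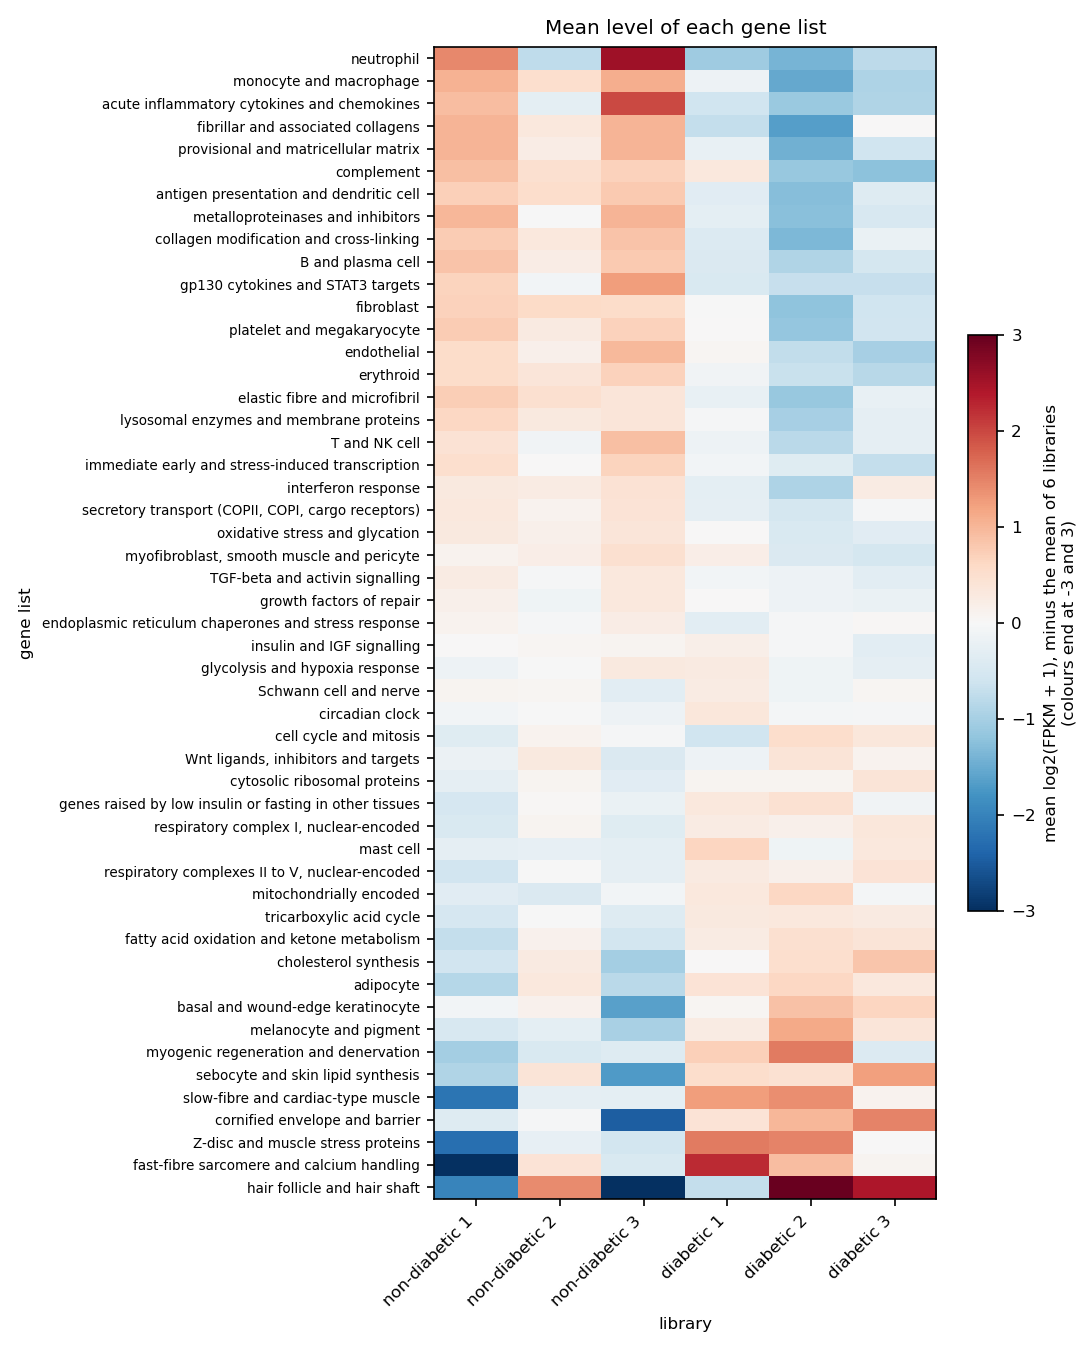
Mean log2(FPKM + 1) of the tested members of each gene list (vertical axis) in each of the 6 libraries (horizontal axis), as the difference from the mean over the libraries. Lists are ordered by the difference between the groups, from lower in diabetic ulcers at the top to higher at the bottom, and the hair follicle list runs from 0.65 in non-diabetic replicate 3 to 7.72 in diabetic replicate 2.

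Epithelial lists were higher in diabetic ulcers, with calls only among cornified genes and large differences between replicates. Of 17 basal and wound-edge keratinocyte genes 16 were higher (median 1.03) and 0 were called in limma, with 7 at an unadjusted p under 0.05. Leaving out non-diabetic replicate 3 moved the median to 0.54, and leaving out replicates 1 and 3 to 0.38. The wound-induced keratin Krt6a, given by 2 features that were summed, was at 687, 83.6 and 83.8 against 36.7, 193 and 274 FPKM, the 1 lower member (log2 change -0.43, adjusted p = 0.79). Of 21 cornified envelope and barrier genes 19 were higher and 14 had groups that did not overlap (median 2.06), and 2 rose, Lce1m and Kprp. Kprp, a keratinocyte proline-rich protein, went from 1.42, 2.26 and 0.0165 to 4.22, 7.25 and 9.2 FPKM (log2 change 1.93). Krt1 was at 539.8, 508 and 8.43 against 778, 991 and 1308 FPKM (log2 change 2.87, adjusted p = 0.168), so that non-diabetic replicate 3 alone was far below the rest. Without that library the median of the cornified list was 1.25, and it was 1.11 without non-diabetic replicates 1 and 3.

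All 28 hair follicle and hair shaft genes were higher on average, yet in no gene of this list were the groups apart. The median was 3.55, 1.91 with non-diabetic replicate 3 left out and 0.19 with replicates 1 and 3 left out, and 0 were called in limma, with 9 at an unadjusted p under 0.05. The hair keratin gene Krt31 was at 16.5, 599 and 0.717 against 48.2, 1421 and 882 FPKM, and the keratin-associated gene Krtap8-1 at 17, 319.7 and 1.7 against 48.4, 1901 and 1472 FPKM. For both, non-diabetic replicate 2 was above diabetic replicate 1.

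Lipid synthesis genes, which sebaceous glands and keratinocytes use for skin lipids, were mostly higher. Of 24 sebocyte and skin lipid genes 21 were higher (median 1.27, and 0.34 without non-diabetic replicates 1 and 3), and 0 were called in limma, 16 with an unadjusted p under 0.05. The desaturase gene Scd was at 19.6, 133 and 4.16 against 139, 175 and 293 FPKM (log2 change 3.0, adjusted p = 0.0759). Of 20 cholesterol synthesis genes 18 were higher (median 0.8, 1.22 with non-diabetic replicate 2 left out and 0.17 with replicates 1 and 3 left out) and 0 were called, 10 with an unadjusted p under 0.05. Of 14 adipocyte genes 12 were higher (median 0.94, and 0.12 without non-diabetic replicates 1 and 3) and 0 were called, 6 with an unadjusted p under 0.05. The fatty acid carrier Fabp4 was at 380.0, 527 and 399 against 763, 756 and 688 FPKM (adjusted p = 0.0936).

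Pigment genes were higher. Of 16 melanocyte and pigment genes 7 rose (median 1.04). After Dct, which was at 4.6, 6.04 and 0.0688 against 17.5, 66.8 and 28.8 FPKM, Tyrp1 and Tyr, the fourth by level was Slc24a5, an ion exchanger of the melanosome, from 0.219, 0.397 and 0.163 to 1.59, 4.05 and 1.61 FPKM (log2 change 1.37). Tyrp1 was at 2.23, 3.01 and 0 FPKM in non-diabetic and 11.9, 41.1 and 18.2 FPKM in diabetic ulcers. The list's mean log2 level was 2.04, 2.22 and 1.54 in non-diabetic and 2.77, 3.66 and 2.89 in diabetic libraries. Of 13 Schwann cell and nerve genes (median 0.37, 0.12 without non-diabetic replicates 1 and 3 and -0.05 with a filter of 1 FPKM) 0 were called in limma, with 3 higher and 1 lower at an unadjusted p under 0.05.

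Striated muscle genes were higher, and most of those called code for structural and stress proteins of the Z-disc. Of 24 Z-disc and muscle stress genes, all higher (median 2.02, and 1.14 without non-diabetic replicates 1 and 3), 5 rose and 15 had groups that did not overlap. Beside Csrp3 and Myoz2 these were the small heat shock protein gene Hspb7, from 0.904, 5.25 and 8.37 to 37.4, 77.9 and 15.6 FPKM (log2 change 2.94), and Synpo2l, an actin-binding Z-disc protein, from 0.842, 2.84 and 1.62 to 14.9, 18.7 and 4.2 FPKM (log2 change 2.15). The fifth was Mlip (log2 change 2.09), named after its values were seen. All 19 fast-fibre sarcomere and calcium genes were higher (median 2.23), 8 had groups that did not overlap, and 0 were called in limma, with 14 at an unadjusted p under 0.05. Fast troponin Tnni2 was at 27, 663 and 320.4 against 2519, 972 and 707 FPKM (adjusted p = 0.104). The fast-fibre median moved to 1.39 without non-diabetic replicate 1, and to 0.93 when replicate 3 was left out too.

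Of 16 slow-fibre and cardiac-type muscle genes 15 were higher and 0 were called in limma, with 11 at an unadjusted p under 0.05 (median 2.11, 1.21 with non-diabetic replicate 1 left out and 1.11 with replicate 3 left out too). Sarcolipin (Sln), which inhibits the calcium pump of muscle, was at 3.68, 12.1 and 41.5 against 229, 336 and 77.8 FPKM (log2 change 3.73, adjusted p = 0.0501). Of 15 genes of myogenic regeneration and denervation 1 rose, Myh8 (median 1.41). The ubiquitin ligase Trim63, which breaks down sarcomeres in wasting muscle, was at 0.997, 13.9 and 11.6 against 131, 83.9 and 19.97 FPKM (log2 change 3.1, adjusted p = 0.0539), and embryonic myosin Myh3 at 5.3, 5.86 and 6.09 against 37.9, 110.2 and 9.7 FPKM (log2 change 2.41, adjusted p = 0.0702). For both, every diabetic library was above every non-diabetic one.

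Nuclear genes of mitochondrial respiration were higher by smaller amounts. Of 35 genes listed under complex I, Ndufa4 among them, 33 were higher and 8 rose (median 0.56). In 20 the groups did not overlap, with the diabetic group higher. Ndufa6 went from 109.6, 183 and 137 to 297, 229 and 307 FPKM (log2 change 0.97, SE 0.25), Ndufv2 from 68.7, 107 and 84 to 161, 134 and 163 FPKM (log2 change 0.83) and Ndufs3 from 29.1, 43.8 and 41.9 to 76.4, 54.3 and 77.6 FPKM (log2 change 0.85), all subunits of the complex, and Ndufa4, a subunit now assigned to cytochrome oxidase, from 21.8, 42.7 and 27.5 to 58.4, 63 and 84 FPKM (log2 change 1.17). Non-diabetic replicate 2 was the highest of its group for each of the 4, and still below every diabetic library. Of 37 genes of complexes II to V, 5 rose and 25 had groups that did not overlap with the diabetic group higher (median 0.58). The ATP synthase subunits Atp5f1b and Atp5pd rose by log2 changes of 0.83 and 0.99, cytochrome oxidase subunit Cox5b by 0.75 and cytochrome c1 (Cyc1) by 0.82. The fifth was Atp5pf (log2 change 0.99, named after its values were seen). Without non-diabetic replicates 1 and 3 the medians were 0.29 for complex I and 0.33 for complexes II to V.

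Enzymes that feed the respiratory chain were higher as well. All 21 genes of the tricarboxylic acid cycle were higher, and 4 rose (median 0.59, and 0.32 without non-diabetic replicates 1 and 3). They were the malate dehydrogenases Mdh1, from 42, 79.5 and 35.3 to 108, 104 and 169 FPKM (log2 change 1.32), and Mdh2 (log2 change 0.98), the succinyl-CoA ligase subunit Sucla2 (log2 change 0.99) and the pyruvate dehydrogenase subunit Pdha1 (log2 change 0.66). Of 27 genes of fatty acid oxidation and ketone metabolism 25 were higher and 3 rose (median 0.71, 0.21 without non-diabetic replicates 1 and 3). The electron carrier Etfa went from 39.3, 68.1 and 40.5 to 93.4, 74.9 and 119 FPKM (log2 change 0.96), the acyl-CoA synthetase Acsl1 from 7.2, 11.7 and 7.71 to 17.5, 26.2 and 17.4 FPKM (log2 change 1.12) and the ketone body enzyme Bdh1 from 6.52, 10.3 and 2.94 to 12.6, 22 and 30.01 FPKM (log2 change 1.62). All 13 mitochondrially encoded genes were higher (median 0.68, and 0.45 without diabetic replicate 2) and 0 were called in limma, with 6 at an unadjusted p under 0.05. Mt-co1 was at 3162, 2421 and 4001 against 3425, 3690.2 and 3043 FPKM (log2 change 0.11). Muscle, which is rich in mitochondria, was also higher in the diabetic libraries, and its part in these results was not tested. The fast-fibre list stood at 3.65, 7.22 and 6.36 in non-diabetic and 9.05, 7.74 and 6.89 in diabetic libraries, against 4.36, 4.91 and 4.45 and 5.06, 4.97 and 5.17 for complex I. Relative to the fast-fibre list, Ndufa6 was at 3.14, 0.31 and 0.74 against -0.82, 0.1 and 1.37 log2 units, and the groups overlapped.

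**Figure D4:**
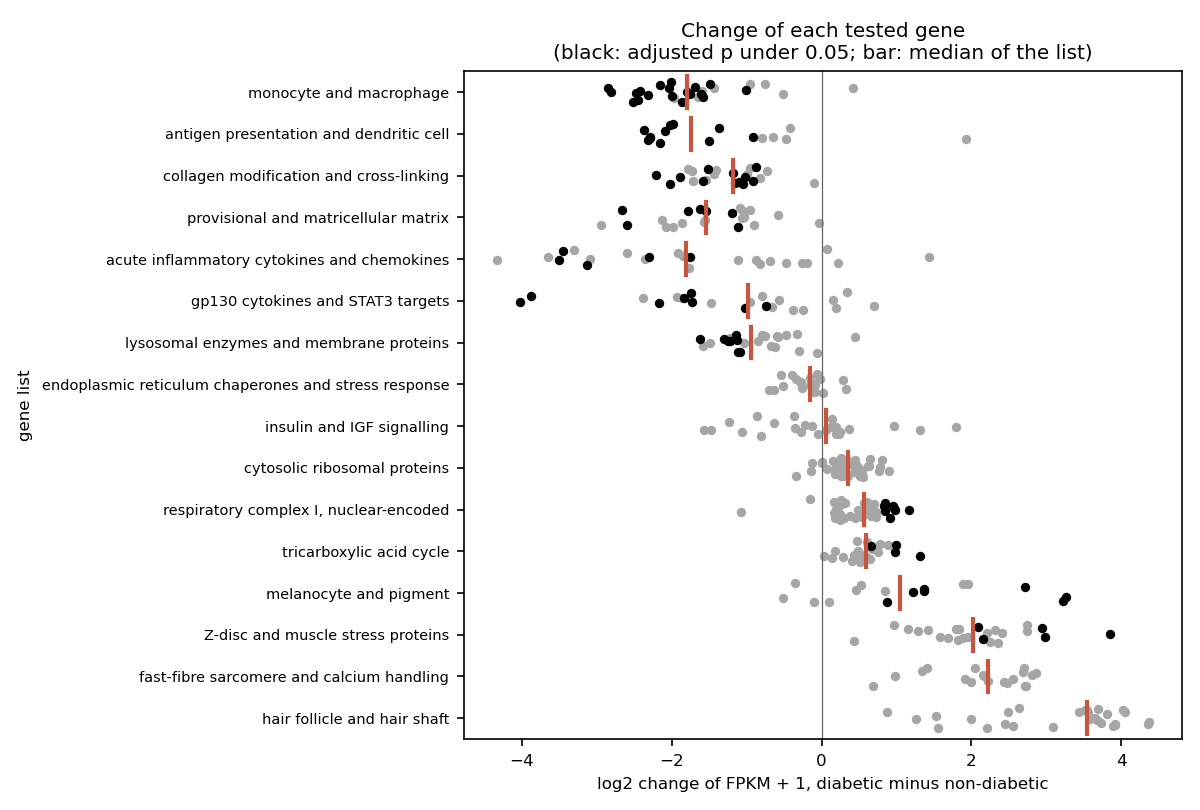
Log2 change of FPKM + 1, diabetic minus non-diabetic (horizontal axis), of each tested gene in 16 of the gene lists (vertical axis), with called genes in black, other genes in grey and the median of each list as a bar. Medians run from -1.81 for acute inflammatory genes to 3.55 for hair follicle genes, the latter with 0 called genes.

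Genes of glucose use and of the diabetic state itself went in both directions. Of 30 genes of glycolysis and the hypoxia response, 3 fell and 1 rose (median -0.17). The hypoxia factor gene Hif1a fell from 132, 54.5 and 197 to 31.4, 33.4 and 40.5 FPKM (log2 change -1.66). Egln3, a prolyl hydroxylase that marks HIF for degradation and is itself induced by it, rose from 4.11, 8.03 and 4.36 to 16.4, 21.6 and 13 FPKM (log2 change 1.49). The hexokinase Hk1 fell (log2 change -0.57), as did the glucose transporter Slc2a3, found on myeloid and other cells (log2 change -1.78). Of 27 insulin and IGF signalling genes 0 were called in limma, 3 higher and 5 lower with an unadjusted p under 0.05, and the median was 0.06. It turned to -0.14 with diabetic replicate 2 left out, to -0.04 when replicate 1 of the same group was, and to -0.03 when non-diabetic replicate 2 was. The kinase gene Akt1, which carries the insulin signal, was at 64.3, 58.3 and 78.7 against 42.4, 40.6 and 31.2 FPKM (log2 change -0.8, adjusted p = 0.0505). The binding protein gene Igfbp6 was at 363, 406 and 311 against 375, 74.1 and 61.8 FPKM, with diabetic replicate 1 among the non-diabetic libraries. Named for their role and outside the rule, the insulin receptor Insr was at 4.99, 4.86 and 3.95 against 6.93, 5.64 and 3.44 FPKM (log2 change 0.14, SE 0.22) and the adaptor Irs1 at 19.1, 17.4 and 17 against 15.5, 13 and 15.2 FPKM (log2 change -0.28, SE 0.17).

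Of 20 genes known from muscle, liver and fat to rise when insulin is low or in fasting, 0 were called in limma, with 6 higher and 1 lower at an unadjusted p under 0.05 (median 0.41, and near 0 without non-diabetic replicates 1 and 3). Txnip, an inhibitor of glucose uptake that high glucose induces, was at 154, 164 and 117 against 203, 162 and 105 FPKM (log2 change 0.07, SE 0.28), so that the groups overlapped. Of 29 genes of oxidative stress and glycation 4 fell (median -0.22). Haem oxygenase (Hmox1) went from 66.9, 25.8 and 107 to 19.2, 8.51 and 12.4 FPKM (log2 change -2.08). Ncf4 and Ncf1, which code for cytosolic parts of the phagocyte NADPH oxidase, also fell (log2 changes of -2.77 and -2.06).

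In lists of growth and time of day, most of the calls were of clock genes. Of 32 cell cycle genes 24 were higher and 1 fell, the cyclin gene Ccnd3, from 29.8, 21.8 and 38.1 to 16.9, 13.6 and 14.7 FPKM (log2 change -0.91). The median was 0.24 and turned to -0.03 without diabetic replicate 2. Of 44 cytosolic ribosomal protein genes 41 were higher, 0 were called in limma and 7 had an unadjusted p under 0.05 (median 0.35, and 0.07 without non-diabetic replicates 1 and 3). Of 19 circadian clock genes 3 were called. Rora rose from 18.8, 28.6 and 15.1 to 49.9, 40.7 and 61.5 FPKM (log2 change 1.27) and Ciart from 0.0495, 0.342 and 0.174 to 1.57, 0.85 and 1.08 FPKM (log2 change 0.86), while Npas2 fell from 3.1, 2.75 and 2.67 to 1.29, 1.16 and 0.654 FPKM (log2 change -0.93). The clock median was 0.15 and turned to -0.02 without diabetic replicate 1. The labels do not state the hour of sampling.

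Because libraries differed in their content of hair, epidermis, muscle and stroma, some genes were also set against the mean level of a list. The list was that of a cell type that expresses them or lies near. These genes had been named for the widest gap or the largest difference of mean FPKM. The pairs were chosen after the values were seen, and the differences are given with no test. As the genes were picked for their separation in these same libraries, staying apart on this scale is no independent support. Relative to 19 fibroblast genes, Sfrp2 stood at -0.12, -0.83 and -0.02 log2 units in non-diabetic and -2.84, -2.76 and -3.09 in diabetic libraries. Fam111a on the same scale was at -0.45, -0.54 and 0.52 against -4.74, -2.71 and -3.1. Fbn1 was at 1.69, 1.79 and 1.57 against 0.37, -0.14 and 0.65, and the groups were likewise apart for Col5a3, Fn1 and Adamts15. Relative to the macrophage list, Ccr2 was at -0.66, -0.49 and -0.85 against -2.04, -1.78 and -1.59, again with no overlap, whereas Cd74 overlapped at 3.56, 4.02 and 3.25 against 3.11, 2.77 and 3.73. Relative to 17 basal keratinocyte genes, Serpina12 was at -3.33, -3.95 and -3.21 against -2.07, -1.32 and -0.4, and Lce1m, Lao1 and Serpinb7 were also apart.

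For the muscle and pigment genes the groups overlapped on this scale. Relative to the fast-fibre list, Csrp3 was at -0.68, -2.31 and -1.19 log2 units in non-diabetic and -1.0, 1.02 and 0.9 in diabetic libraries, so that diabetic replicate 1 lay among the non-diabetic ones. Myoz2 and Myh8 overlapped as well. Relative to the hair follicle list, Dct was at -0.31, -3.37 and -0.55 against 0.16, -1.64 and -2.3, and Tyr at -2.24, -5.42 and -0.64 against -1.51, -3.64 and -4.35. Their groups overlapped, with a difference of means of 0.15 for Dct and -0.40 for Tyr. The lists themselves differed in spread. The standard deviation over the non-diabetic libraries was 1.87 for the fast-fibre and 2.79 for the hair follicle list. It was 0.08 for the fibroblast and 0.97 for the basal keratinocyte list. Subtracting a list that varies widely can itself make groups overlap, so no conclusion on tissue content is drawn from the overlap.

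**Figure D5:**
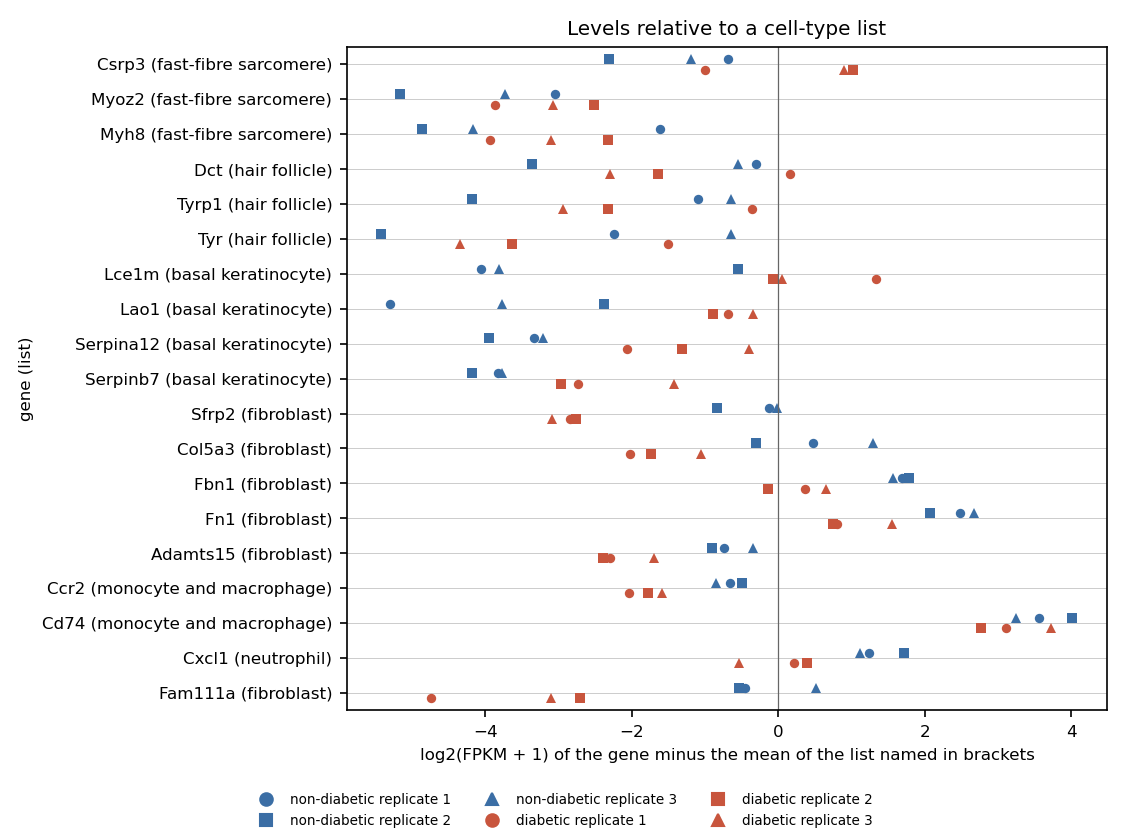
Level of 19 genes (vertical axis), in pairs chosen after the values were seen, relative to the mean of the list in brackets, in log2 units (horizontal axis), 1 point per library, blue for non-diabetic and red for diabetic ulcers. Groups are apart for genes set against fibroblast and basal keratinocyte lists, such as Sfrp2 at -0.83 or more and -2.76 or less, and overlap for muscle and pigment genes.

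The deposited count table covered 249 long non-coding RNA genes, all with an unadjusted p for this same comparison under 0.05 (the highest in the authors' deposited table was 0.0499). Their differences are therefore given as a description and were not tested again. By the authors' deposited table, 171 were higher and 78 lower in diabetic ulcers, and 64 and 44 of these had an adjusted p under 0.05. The unnamed gene with the smallest p among those lower (ENSRNOG00000066887, chromosome 1, 38624474 to 38691338) had 657, 235 and 761 reads in non-diabetic and 53, 51 and 26 reads in diabetic libraries, with a log2 change of -3.84 in the authors' deposited table. Of those higher, the gene with the smallest p (ENSRNOG00000064284, chromosome 2, 31484118 to 31489995) had 207, 307 and 136 reads in non-diabetic and 734, 1271 and 1743 in diabetic libraries (2.47 in the authors' deposited table). Among the 17 with a gene name, 2 abundant ones lower in diabetic ulcers carried the names of protein-coding genes. They were Rab32, with 8459, 6425 and 9269 reads against 3288, 1696 and 3284, and Gng2, with 5197, 2599 and 5741 against 2275, 848 and 1538. The most abundant named gene among those higher was listed as Rpl30, with 4227, 5467 and 2911 against 7012, 9934 and 13823 reads. Whether these counts include reads of the protein-coding transcripts cannot be told from the table.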

How the data were processed

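RNA of ulcer skin was sequenced in 9 libraries, 3 in each of 3 groups. The authors deposited FPKM per gene for all libraries, made with cutadapt, FastQC, HISAT2 and StringTie per the submitters' processing notes. These notes name the mouse build GRCm39, while all identifiers are rat, and no source used here names a rat build, so coordinates are those of the deposited table. A second deposited table holds read counts of selected long non-coding RNAs, with the authors' p-values and log2 fold changes, which were copied and not tested again. Its group mean signal is, per the file headers and values, the authors' mean of scaled counts and was not used for any result. No read totals were given for the whole transcriptome, so the depth behind an FPKM value is unknown and no counting interval is given.

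Features with the same gene name were summed, genes with at least 0.5 FPKM in 3 of 9 libraries were kept, and log2(FPKM + 1) was fitted by group with limma 3.58.1 in R 4.3.3 (trended empirical Bayes, Benjamini-Hochberg adjustment over all tested genes, two-sided). Fold changes are on the log2(FPKM + 1) scale, which understates changes of low genes. The method was tested on simulated data. It called 6 of 15400 unchanged genes, and 31 of 66, 56 of 67 and 60 of 67 genes changed by 1, 2 and 4 log2 units. The changed genes were drawn only from those with a mean log2(FPKM + 1) above 2, so detection of genes near the filter was not covered. Noise was drawn for each gene separately, so differences of tissue content shared by many genes were not covered. The members and gene lists were chosen with earlier results of these data known.

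Genes were named by rule: the 10 called genes in each direction with the widest gap between groups, at a mean of at least 1 FPKM in the higher group; the 6 in each direction with the largest difference of mean FPKM; up to 4 members of each list, called ones first and then by level; and 2 named non-coding RNAs in each direction with the largest count. Some genes that the rule names are not reported here. Alternatives covered the pseudocount, the filter, the scaling, sample weights, a replicate block and each library left out.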

Additional observations from a re-analysis of the deposited data

How the results depend on the processing

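Of the 1396 calls, all kept their direction in each alternative in which they were tested. For libraries left out and for the pseudocount this was fixed in advance, as the groups of every called gene did not overlap. The number of calls did not hold. It was 0 with no filter on low values (smallest adjusted p 0.0548, with 6270 genes at an unadjusted p under 0.05 in limma), 0 on the 6 saline libraries and 0 with non-diabetic replicates 1 and 3 left out. It was 861 with median-of-ratios size factors, with 624 lower, and 5607 with sample weights, with 2716 higher and 2891 lower. That size factor scaling moved the split from 279 higher and 1117 lower to 237 and 624. With it the number called was 12 in place of 19 for macrophage genes, 5 in place of 8 for lysosomal genes, 3 in place of 8 for metalloproteinases, 4 in place of 7 for provisional matrix, 1 in place of 4 for endothelial, 4 in place of 8 for complex I, 1 in place of 3 for fatty acid oxidation and for secretory transport, 0 in place of 3 for glycolysis genes called lower, 1 in place of 2 for complement and cornified genes, and 0 in place of 2 for interferon genes, and the single calls of the neutrophil, mast cell, myogenic and cell cycle lists were lost. With 1 library left out at a time the total ran from 0 to 3501, the genes higher from 0 to 1515 and the genes lower from 0 to 1986. The cause was not tested.

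Same-numbered libraries did not deviate together (correlations of -0.027, 0.26 and -0.285), and with the replicate number as a block 1259 genes were called, 1015 of them among the 1396. Medians of 5 lists changed sign beyond rounding in some alternative, to -0.03 for cell cycle genes without diabetic replicate 2 (0.66 without diabetic replicate 1) and to -0.02 for clock genes without diabetic replicate 1 (0.32 without diabetic replicate 2). For insulin and IGF genes it ran to -0.14 without diabetic replicate 2 and was -0.06 with sample weights, for Schwann cell genes it was -0.05 with the filter at 1 FPKM, and for the 2 sex-linked genes -0.03 without diabetic replicate 3. The median of genes raised by low insulin or fasting rounded to -0.0 without non-diabetic replicates 1 and 3. FPKM without read totals limits what can be said of genes near the filter.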
